A study of Mus musculus with 12 samples.

Results

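The hepatocyte carriers that move bile salts, phospholipid, organic anions and drugs across the cell membrane were followed as a set of 10 genes in mouse livers carrying the AP-1 transgenes Fra1 or Fra2. The set was chosen by symbol from the 55421 rows of the deposited count table, each member having 1 row, by a rule that uses no measured value, though earlier results of these data were known when the set was proposed. Of the 10 genes, 6 encode pumps of the canalicular membrane, which faces the bile (Abcb11, Abcb4, Abcc2, Abcg2, Abcb1a and Abcb1b), and 4 encode carriers of the basolateral membrane, which faces the blood (Slc10a1, Abcc3, Abcc4 and Abcc1). All 10 passed the filter on low counts and are among the 14076 genes tested.

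Polyadenylated RNA was sequenced from the livers of adult male C57BL/6 mice, material that the labels call mostly hepatocyte. The 4 groups of 3 mice were Fra1 mutants of the Fra1hep strain, Fra1 controls (their littermates), Fra2 mutants of the Fra2hep strain and Fra2 controls (their littermates). The transgene was switched on in mutants by withdrawing doxycycline at 3 weeks of age, and controls shared the cage and the withdrawal. Titles and design text give sampling 2 months later for every group, but the treatment label of the Fra2 mutants says 9 months, while that of the Fra2 controls says 2 months, so age and genotype cannot be told apart in that strain if the label is right. The promoter that drives the transgene was not given in any source used here. Libraries held 16834041 to 20464807 counts. Fosl1, which encodes Fra-1, had 172, 193 and 252 counts in Fra1 mutants, against 0, 0 and 1 in Fra1 controls. Fosl2, which encodes Fra-2, had 398, 421 and 421 CPM (counts scaled to library size) in Fra2 mutants, against 12.2, 48.1 and 16.0 CPM in Fra2 controls. Fosl1 and Fosl2 counts were uneven among the Fra2 controls, Fosl2 being highest in Fra2 control 2. An alternative fit therefore left out Fra2 controls 1 and 2 together. Summed markers of hepatocytes were between 52930 and 105300 CPM in Fra1 mutants, against 82720 to 117900 CPM in Fra1 controls, and between 55900 and 73070 CPM in Fra2 mutants, against 101100 to 124100 CPM in Fra2 controls. The hepatocyte sums of the Fra2 groups did not overlap, and their part in the transporter values was not tested. Most of the sum was albumin (Alb), which averaged 44438 CPM in Fra2 mutants and 92123 CPM in Fra2 controls, while Apob, the protein of secreted lipoproteins, averaged 7044 CPM in Fra2 mutants and 3829 CPM in Fra2 controls. Of the 8 markers 0 passed in either strain by edgeR, with 4 in each at an unadjusted p under 0.05. DESeq2 called 1 in Fra1 mutants and 3 in Fra2 mutants, and limma-voom 0. In Fra2 mutants 3 were positive with a list median of -0.05. Averaged over both strains, edgeR called Apob as higher and Apoa1 as lower. Fra1 mutant 2 stood apart from the other libraries at 38.04 on the second principal component (14.1% of the variance), where the others lay between -26.37 and 17.68. In whole liver, fewer cells of a type and less RNA per cell cannot be told apart.

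Bile flow is driven by bile salts that hepatocytes take up from the blood through NTCP, the product of Slc10a1, and pump into the canaliculus through BSEP, the product of Abcb11. ABCB4 turns phosphatidylcholine to the outer canalicular leaflet, where it joins bile salts in micelles, and ABCC2 exports glucuronide and glutathione conjugates, among them those of bilirubin. ABCC3 and ABCC4 return conjugates and bile salts to the blood and are known as alternative exits when canalicular export is impaired.

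The sequences before the transcription starts of Abcb11 and Abcc4 are shown because these are the member of each membrane whose call in Fra1 mutants was kept under most settings, and short stretches of Abcb1a, Abcc2 and the ileal bile salt carrier Slc10a2 are shown for the elements they hold. All are from RefSeq on GRCm38.p6 and read 5′ to 3′ on the gene's strand. Capitals in Abcb11 mark GGNCA and TGACC with 1 base between them, an inverted repeat of the form bound by the bile acid receptor FXR. In Abcc4, Abcb1a and Abcc2 they mark TGACNNNGC, the core of the antioxidant response element bound by NRF2. In Slc10a2 they mark TGANTCA, a loose form of the AP-1 element with any base at its centre, here T. The Abcb11 stretch is chr2:69342617-69342866 on the minus strand, the Abcc4 stretches are chr14:118706220-118706469 and chr14:118676932-118677181 on the minus strand, the Abcb1a stretch is chr5:8567107-8567135 on the plus strand, the Abcc2 stretch is chr19:43782200-43782228 on the plus strand and the Slc10a2 stretch is chr8:5105389-5105415 on the minus strand.
Abcb11 upstream of the start: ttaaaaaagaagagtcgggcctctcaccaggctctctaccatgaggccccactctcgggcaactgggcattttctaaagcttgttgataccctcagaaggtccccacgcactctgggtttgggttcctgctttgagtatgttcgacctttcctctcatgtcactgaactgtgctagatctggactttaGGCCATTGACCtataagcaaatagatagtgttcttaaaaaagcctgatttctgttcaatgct
Abcc4 upstream of the first start: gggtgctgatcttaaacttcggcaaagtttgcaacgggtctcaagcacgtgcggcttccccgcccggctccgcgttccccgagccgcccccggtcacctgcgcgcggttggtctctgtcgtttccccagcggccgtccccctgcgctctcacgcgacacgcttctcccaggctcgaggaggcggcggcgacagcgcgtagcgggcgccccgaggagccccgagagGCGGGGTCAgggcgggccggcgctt
Abcc4 upstream of the second start: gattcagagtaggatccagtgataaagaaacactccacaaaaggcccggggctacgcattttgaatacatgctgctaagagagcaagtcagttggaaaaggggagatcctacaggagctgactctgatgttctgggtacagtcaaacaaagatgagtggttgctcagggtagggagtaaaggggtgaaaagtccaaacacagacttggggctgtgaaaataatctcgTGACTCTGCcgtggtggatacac
Abcb1a around the element: ctctttgtccGCGGAGTCAgacagaacaa
Abcc2 around the element: ctcactgggaTGACATAGCattcatctag
Slc10a2 around the element: ggacgttttaTGATTCAttatttgtgc

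RefSeq windows from 250 bases before to 50 bases after a start were found for 8 of the 10 members, 12 windows in all, with none for Abcc3 and Abcc1. Both strands were searched, with N standing for any base. The loose AP-1 form was in 0 of the 12 windows, and 7.81% of all 32851 windows held it. The antioxidant core was in 4 of the 12, namely both of Abcc4 and those of Abcb1a and Abcc2, against 12.4% of all windows. The inverted repeat was in the Abcb11 window alone among the 12, against 0.237% of all windows; it was also in 1 of 17 windows of other carriers (Slco1b2), none of which held the antioxidant core, and that motif was picked after the window had been read. The Abcb1a match lies 27 bases after a RefSeq start that is itself 92986 bases before the start of the gene in GENCODE. These matches describe letters in a window and say nothing of binding.

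Per length of exon the members fell into an abundant and a scarce group. Over the 12 libraries Slc10a1 was first at 294 CPM per kb of exon, followed by Abcb11 at 118, Abcc2 at 65.3, Abcc3 at 56.0, Abcb4 at 38.2 and Abcg2 at 15.2 CPM per kb. Abcb1a at 0.727, Abcc4 at 0.602, Abcb1b at 0.276 and Abcc1 at 0.155 CPM per kb came far below. Both membranes were thus represented at both ends of the order. Neighbours in the order often overlapped: in Fra1 controls Abcc2 ran from 45.1 to 79.4 and Abcc3 from 45.4 to 64.6 CPM per kb. In Fra1 mutants the level of Abcb4, 29.5 to 61.5 CPM per kb, overlapped those of Abcc3 and Abcc2, whereas in Fra1 controls its 15.7 to 25.2 CPM per kb lay below both. Abcc4 ranked eighth in Fra1 mutants at 0.806 ± 0.204 CPM per kb and ninth in Fra1 controls at 0.156 ± 0.048 CPM per kb (SD, n = 3 each). It ranked seventh, above Abcb1a, in both Fra2 mutants and Fra2 controls, where the ranges of the pair overlapped. Lengths are the union of annotated exons, so a member transcribed mainly from a short isoform would be placed too low.

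**Figure D1:**
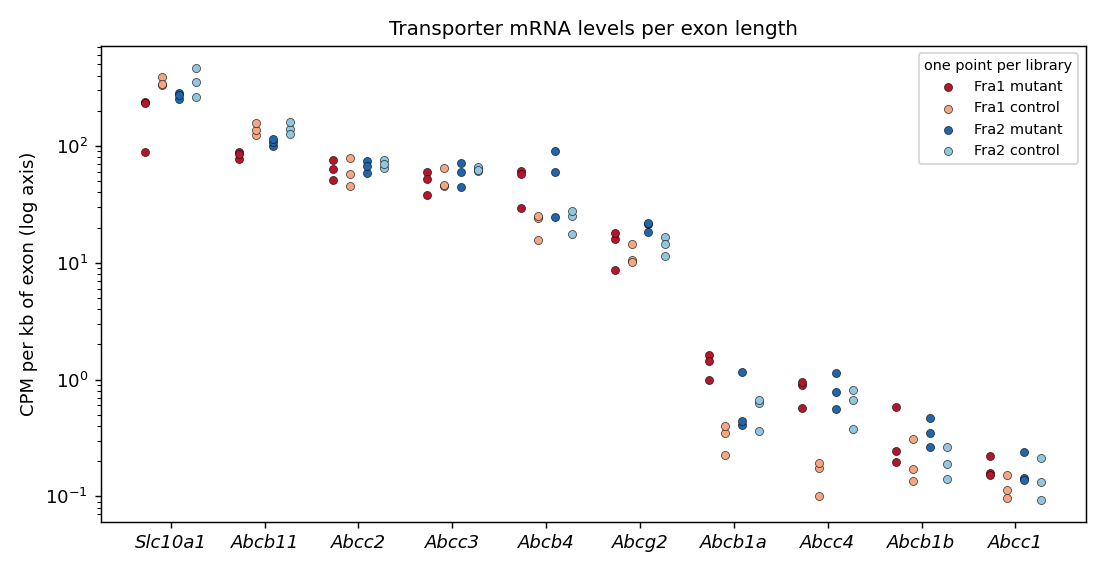
Levels of the 10 transporters in CPM per kb of exon on a log axis, 1 point per library, with columns of points for Fra1 mutants, Fra1 controls, Fra2 mutants and Fra2 controls from left to right within each gene. The mean over 12 libraries runs from 294 for Slc10a1 to 0.155 for Abcc1.

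In Fra1 mutants 3 of the 10 transporters passed the test against Fra1 controls, where 3.84% of all 14076 genes did (edgeR's quasi-likelihood test, Benjamini-Hochberg adjusted p under 0.05). Abcb11 fell, as 0.938% of all genes did, and Abcb1a and Abcc4 rose, as 2.9% did. The groups did not overlap for 5 of the 10 (Abcb11, Abcb4, Abcb1a, Slc10a1 and Abcc4), where 21.7% of all genes did not overlap. In Fra2 mutants 0 of the 10 passed, where 1.07% of all genes did; 3 had an unadjusted p under 0.05 by edgeR, DESeq2 called 1 (Abcb4) and limma-voom called 0. The groups did not overlap for 3 of the 10 (Abcb11, Abcg2 and Abcb1b), where 17.5% of all genes did not. The effects in the 2 strains differed for 0 of the 10, where 0.0355% of all genes passed; 2 members, Abcc4 and Abcb1a, had an unadjusted p under 0.05, and DESeq2 and limma-voom called 0 of the 10.

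Calls fell on both membranes, and a difference between the membranes was not tested. In Fra1 mutants 1 of 6 canalicular genes rose and 1 fell, and 1 of 4 basolateral genes rose. The median log2 fold change was 0.50 for the canalicular and 0.25 for the basolateral members in Fra1 mutants, beside 0.01 over all genes tested. In Fra2 mutants the medians were 0.41 and 0.07, beside -0.01 over all genes. Single libraries moved the canalicular medians: that of Fra1 mutants was 0.14 without Fra1 mutant 3 and 0.79 without Fra1 control 3, and that of Fra2 mutants was 0.18 without Fra2 mutant 2. The canalicular medians hide opposite directions, since Abcb11 was negative and Abcb4 positive in both strains.

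**Figure D2:**
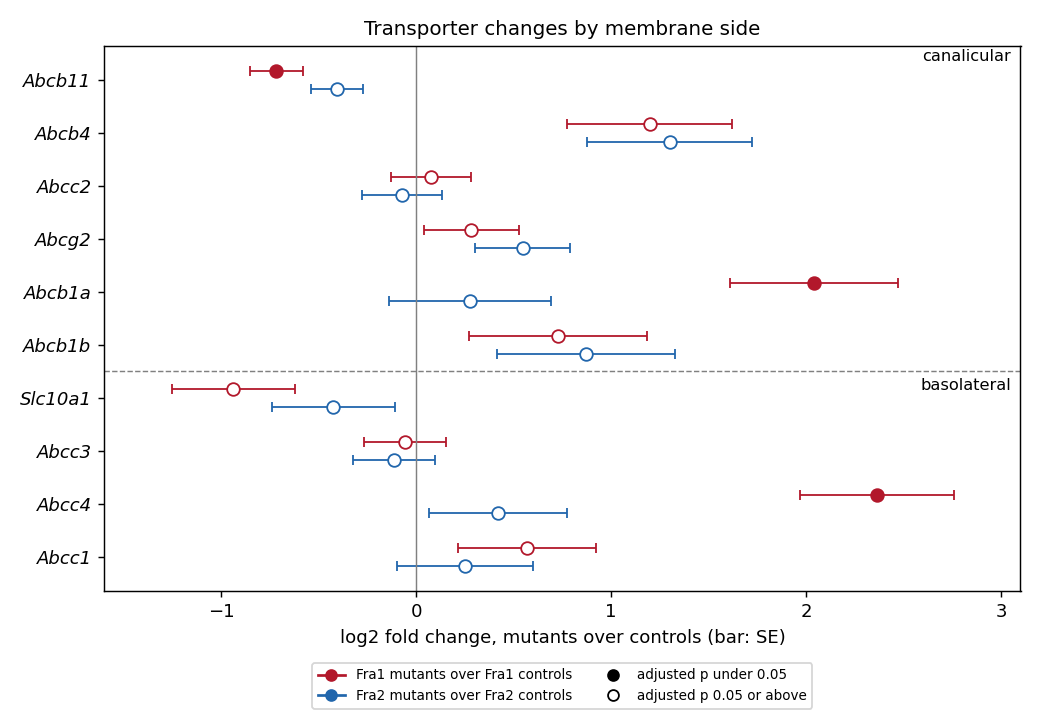
Log2 fold changes of the 10 transporters with their SE, Fra1 mutants over Fra1 controls in red and Fra2 mutants over Fra2 controls in blue, with canalicular genes above the dashed line and basolateral genes below it. Filled points mark an adjusted p under 0.05, which Abcb11, Abcb1a and Abcc4 reached in Fra1 mutants and no member reached in Fra2 mutants.

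Abcb11 (ENSMUSG00000027048.15, chromosome 2, 69238282 to 69342616, minus strand, GRCm38) encodes the canalicular bile salt export pump. It stood at 401, 460 and 444 CPM in Fra1 mutants, against 636, 706 and 804 CPM in Fra1 controls. In the other strain it stood at 511, 560 and 590 CPM in Fra2 mutants, against 721, 648 and 832 CPM in Fra2 controls. All 6 mutant livers lay below all 6 control livers, with no overlap in either strain. The log2 fold change was -0.72 ± 0.14 (SE; adjusted p = 0.01325, edgeR) in Fra1 mutants and -0.41 ± 0.14 (adjusted p = 0.244) in Fra2 mutants, and the effects differed by -0.31 ± 0.19 (adjusted p = 0.864). Without Fra1 control 3 or Fra1 mutant 1 the Fra1 call was lost, with adjusted p values up to 0.054, and it was kept in the other 10 of 12 fits that left out 1 library.

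The average of the Fra1 and Fra2 effects, a contrast added after the values had been seen, joins both strains and compares 6 mutants with 6 controls. By it Abcb11 was lower by a log2 fold change of -0.56 ± 0.10 (adjusted p = 0.00476, edgeR), with 6 of 6 mutants below every control and calls in 12 of 12 fits that left out 1 library. Of all genes tested, 6.24% were called by this contrast, 4.33% as higher and 1.9% as lower, and in 1.13% all 6 mutants lay below all 6 controls. It also called 3 members as higher, namely Abcb4, Abcb1a at 1.16 (adjusted p = 0.0422) and Abcc4 at 1.39 (adjusted p = 0.00874). For each of these 3, the 6 mutants overlapped the 6 controls. Abcb1a was 2.04 in Fra1 mutants and 0.28 in Fra2 mutants, and Abcc4 2.36 and 0.42, and neither Fra2 value passed. The Abcc4 call was kept in 12 of 12 fits that left out 1 library and the Abcb1a call in 3 of 12, and without Fra2 controls 1 and 2 together 0 members were called as higher. The Abcb1a call was also lost by limma-voom (adjusted p = 0.0596) and the Abcb4 call with no filter on low counts (adjusted p = 0.123).

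Abcb4 (ENSMUSG00000042476.12, chromosome 5, 8893717 to 8959231, plus strand), the phospholipid floppase, went the other way from its canalicular neighbour. It stood at 577, 277 and 543 CPM in Fra1 mutants, against 147, 226 and 236 CPM in Fra1 controls. In the other strain it stood at 230, 845 and 557 CPM in Fra2 mutants, against 236, 261 and 166 CPM in Fra2 controls. The Fra1 groups did not overlap, and 2 of the 3 Fra2 mutants lay above all controls, the third lying among them. The log2 fold change was 1.20 ± 0.42 (adjusted p = 0.172) in Fra1 mutants and 1.30 ± 0.43 (adjusted p = 0.238) in Fra2 mutants by edgeR, and neither passed. DESeq2 called the Fra2 value, with an adjusted p of 0.0481. Over both strains the average was 1.25 ± 0.30 (adjusted p = 0.0328, edgeR), a call kept in 2 of 12 fits that left out 1 library.

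The ratio of Abcb4 to Abcb11 within a library, which does not depend on scaling between libraries, was 1.44, 0.602 and 1.22 in Fra1 mutants, against 0.231, 0.320 and 0.294 in Fra1 controls. It was 0.451, 1.51 and 0.943 in Fra2 mutants, against 0.328, 0.403 and 0.199 in Fra2 controls. The groups did not overlap in either strain, with 1 mutant of each strain nearer the controls than the other two. The ratio was computed after the values of both genes had been seen and was not tested.

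**Figure D3:**
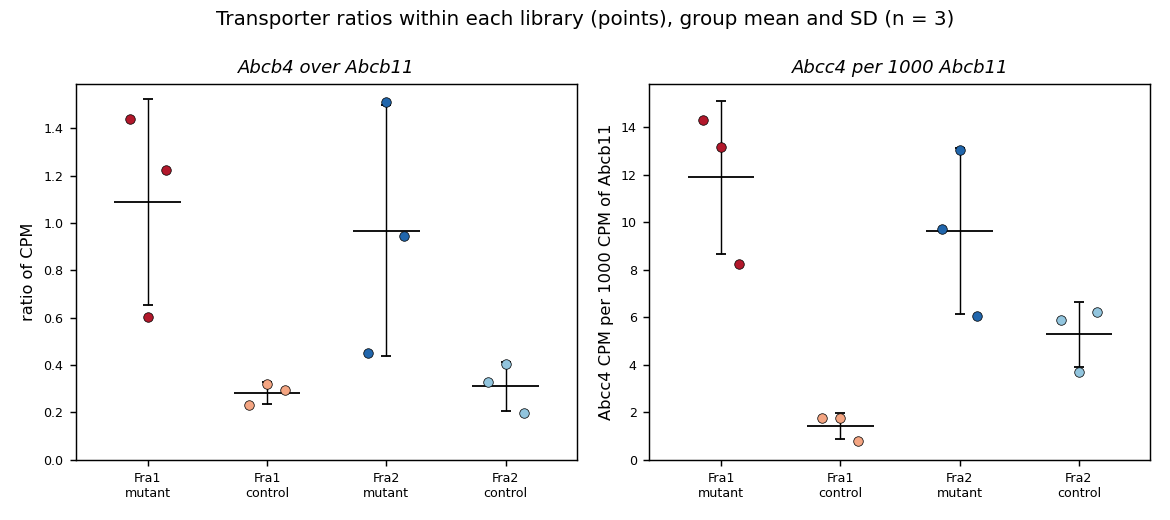
Ratio of Abcb4 to Abcb11 CPM (left) and Abcc4 CPM per 1000 CPM of Abcb11 (right) by library, with group mean (line) and SD (bar, n = 3). Every mutant lies above its own strain's controls on the left, and on the right Fra1 controls, at 0.804 to 1.75, lie below the other 3 groups.

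Abcb1a (ENSMUSG00000040584.8, chromosome 5, 8660077 to 8748575, plus strand) and Abcb1b (ENSMUSG00000028970.9, chromosome 5, 8798147 to 8866315, plus strand) encode the mouse P-glycoproteins, pumps for lipophilic drugs, and lie in tandem before Abcb4. Abcb1a stood at 8.97, 7.90 and 5.38 CPM in Fra1 mutants, against 1.24, 1.92 and 2.21 CPM in Fra1 controls. In the other strain it stood at 2.22, 6.38 and 2.44 CPM in Fra2 mutants, against 1.99, 3.46 and 3.67 CPM in Fra2 controls. The Fra1 groups were well apart, while 2 of the 3 Fra2 mutants lay within the range of the Fra2 controls and 1 above it. Abcb1a rose by a log2 fold change of 2.04 ± 0.43 (adjusted p = 0.02235, edgeR) in Fra1 mutants, and the value was 0.28 ± 0.42 (adjusted p = 0.874) in Fra2 mutants. The difference between strains, 1.76 ± 0.59, had an unadjusted p of 0.0123 and an adjusted p of 0.608. The Fra1 call rested on 106 to 164 counts per mutant library and 19 to 41 per control library, and it was lost in 5 of 12 fits that left out 1 library (without any one of the Fra1 controls, Fra1 mutant 1 or Fra1 mutant 2), with adjusted p values up to 0.112.

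Abcb1b stood at 1.59, 1.95 and 4.62 CPM in Fra1 mutants, against 1.37, 1.08 and 2.48 CPM in Fra1 controls, and the groups overlapped. It stood at 3.74, 2.13 and 2.80 CPM in Fra2 mutants, against 2.10, 1.12 and 1.51 CPM in Fra2 controls, and the groups did not overlap. Neither value passed, at log2 fold changes of 0.73 ± 0.46 (adjusted p = 0.468) in Fra1 mutants and 0.87 ± 0.46 (adjusted p = 0.523) in Fra2 mutants by edgeR. The Fra1 value was 0.089 without Fra1 mutant 3 and 1.14 without Fra1 control 3. The coding sequences of Abcb1a and Abcb1b are 88.1% identical, and 15.5% of the 50-base stretches of Abcb1a also occur in Abcb1b, against 2.57% in Abcb4. How the counting treated reads that match both genes was not stated in any source used here, so the split between Abcb1a and Abcb1b is uncertain.

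Abcc2 (ENSMUSG00000025194.5, chromosome 19, 43782192 to 43840740, plus strand), the conjugate pump, averaged 545 ± 104 CPM in Fra1 mutants and 517 ± 148 CPM in Fra1 controls, and 569 ± 64.4 CPM in Fra2 mutants and 598 ± 44.8 CPM in Fra2 controls (SD, n = 3 each). The log2 fold changes were 0.08 ± 0.20 (adjusted p = 0.9005) in Fra1 mutants and -0.07 ± 0.20 (adjusted p = 0.941) in Fra2 mutants by edgeR, and all 4 groups overlapped. Abcg2 (ENSMUSG00000029802.13, chromosome 6, 58584523 to 58695676, plus strand), which exports urate and sulphated conjugates, stood at 130, 71.2 and 146 CPM in Fra1 mutants, against 85.5, 82.5 and 117 CPM in Fra1 controls. It stood at 149, 176 and 180 CPM in Fra2 mutants, against 134, 92.5 and 119 CPM in Fra2 controls. The Fra2 groups did not overlap, the Fra1 groups did, and neither log2 fold change passed, at 0.28 ± 0.24 (adjusted p = 0.622) in Fra1 mutants and 0.55 ± 0.25 (adjusted p = 0.425) in Fra2 mutants.

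**Figure D4:**
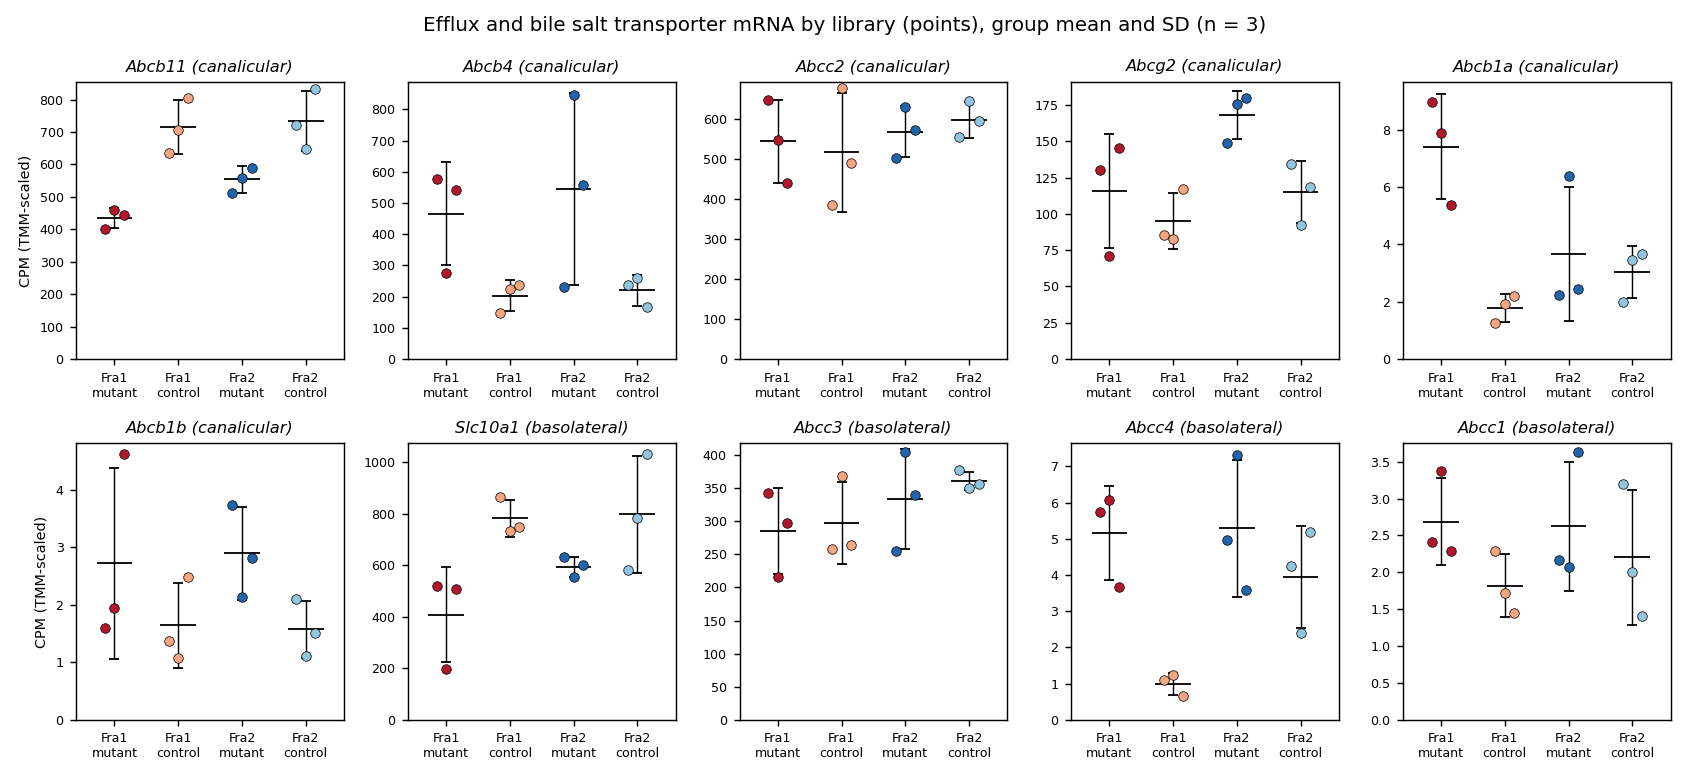
CPM of the 10 transporters in each library (points) with group mean (line) and SD (bar, n = 3), for Fra1 mutants, Fra1 controls, Fra2 mutants and Fra2 controls from left to right, each axis starting at 0. All 6 mutant points of Abcb11 lie below its 6 control points, and for Abcc4 the Fra1 controls lie below every other library.

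On the basolateral side, Abcc4 (ENSMUSG00000032849.14, chromosome 14, 118482692 to 118706219, minus strand) encodes MRP4, a pump that returns bile salts and cyclic nucleotides to the blood. It stood at 5.74, 6.06 and 3.66 CPM in Fra1 mutants, against 1.11, 1.23 and 0.646 CPM in Fra1 controls, or 72 to 115 counts against 12 to 25. In the other strain it stood at 4.96, 7.31 and 3.58 CPM in Fra2 mutants, against 4.25, 2.40 and 5.18 CPM in Fra2 controls. The Fra1 groups were far apart and the Fra2 groups overlapped. Abcc4 rose by a log2 fold change of 2.36 ± 0.39 (adjusted p = 0.0059, edgeR) in Fra1 mutants, the largest of the 10 members, and the call was kept in 12 of 12 fits that left out 1 library. In Fra2 mutants the value was 0.42 ± 0.36 (adjusted p = 0.736).

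For Abcc4 the levels of the control groups lay apart. Fra1 mutants had 5.15 ± 1.30 CPM and Fra2 mutants 5.29 ± 1.88 CPM, whereas Fra1 controls had 0.995 ± 0.308 CPM and Fra2 controls 3.95 ± 1.42 CPM (SD, n = 3 each). The ranges of Fra1 mutants and Fra2 controls overlapped, and those of Fra1 controls and Fra2 controls did not. Fra1 controls against Fra2 controls gave a log2 fold change of -1.98 ± 0.39 with an unadjusted p of 0.000337 and an adjusted p of 0.593 by edgeR, which called 0 of 14076 genes (0%) in that comparison. DESeq2 gave an adjusted p of 0.00266 for it and called 1 gene as higher and 17 as lower. Among the 10 members Abcc4 alone separated the control groups without overlap, as 10.1% of all genes did. The Fra1 controls enter both this comparison and that of the Fra1 mutants. The difference of the Fra1 and Fra2 effects was 1.94 ± 0.53 (unadjusted p = 0.00333, adjusted p = 0.478). Per 1000 CPM of Abcb11 in the same library, Abcc4 was 14.3, 13.2 and 8.24 in Fra1 mutants, against 1.75, 1.74 and 0.804 in Fra1 controls. It was 9.72, 13.1 and 6.07 in Fra2 mutants, against 5.90, 3.71 and 6.23 in Fra2 controls.

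Slc10a1 (ENSMUSG00000021135.8, chromosome 12, 80953183 to 80968705, minus strand), the main sodium-dependent bile salt uptake carrier, stood at 521, 196 and 509 CPM in Fra1 mutants, against 866, 734 and 750 CPM in Fra1 controls. It stood at 631, 554 and 601 CPM in Fra2 mutants, against 580, 783 and 1033 CPM in Fra2 controls. The Fra1 mutants lay below their controls, with mutant 2 far below the other two, and the Fra2 groups overlapped. The log2 fold change was -0.94 ± 0.32 (adjusted p = 0.148) in Fra1 mutants and -0.42 ± 0.31 (adjusted p = 0.683) in Fra2 mutants by edgeR, so that neither passed, while DESeq2 called the Fra1 value with an adjusted p of 0.0419. Without Fra1 mutant 2, the library that stood apart, the Fra1 value was -0.60 (adjusted p = 0.1874, edgeR). The ratio of Slc10a1 to Abcb11 was 1.30, 0.427 and 1.15 in Fra1 mutants, against 1.36, 1.04 and 0.933 in Fra1 controls, and the ranges overlapped.

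Abcc3 (ENSMUSG00000020865.16, chromosome 11, 94343295 to 94392997, minus strand), the abundant basolateral conjugate pump, averaged 285 ± 64.6 CPM in Fra1 mutants and 297 ± 61.7 CPM in Fra1 controls, and 334 ± 75.0 CPM in Fra2 mutants and 361 ± 14.2 CPM in Fra2 controls (SD, n = 3 each). Its log2 fold changes were -0.06 ± 0.21 (adjusted p = 0.926) in Fra1 mutants and -0.11 ± 0.21 (adjusted p = 0.902) in Fra2 mutants by edgeR. Abcc1 (ENSMUSG00000023088.17, chromosome 16, 14361558 to 14475737, plus strand), a glutathione conjugate pump that is scarce in hepatocytes, stood at 2.41, 3.37 and 2.29 CPM in Fra1 mutants, against 2.29, 1.72 and 1.45 CPM in Fra1 controls. It stood at 2.16, 2.07 and 3.63 CPM in Fra2 mutants, against 3.20, 2.01 and 1.40 CPM in Fra2 controls. Its groups overlapped in both strains, and the log2 fold changes of 0.57 ± 0.35 (adjusted p = 0.465) in Fra1 mutants and 0.25 ± 0.35 (adjusted p = 0.855) in Fra2 mutants did not pass.

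Other carriers were read from lists chosen with earlier results of these data known. Slc10a2, the sodium-dependent bile salt carrier of ileum and bile duct epithelium, rose in both strains. It stood at 113, 128 and 103 CPM in Fra1 mutants, against 18.3, 13.3 and 16.4 CPM in Fra1 controls, a log2 fold change of 2.84 ± 0.29 (adjusted p = 0.00032, edgeR). It stood at 95.4, 119 and 65.5 CPM in Fra2 mutants, against 28.4, 16.2 and 13.6 CPM in Fra2 controls, a log2 fold change of 2.27 ± 0.28 (adjusted p = 0.00352). Slc10a2 was listed as a marker of cholangiocytes, the cells of the bile duct. Of that list's 7 tested genes Slc10a2 was the single call in each strain. Of all genes, 3.84% were called in Fra1 mutants and 1.07% in Fra2 mutants. None of the 8 listed markers was at 0 in any group. Without Slc10a2 and Spp1, which immune cells also express, the cholangiocyte markers summed to 40.5 to 52.9 CPM in Fra1 mutants, against 34.0 to 50.4 CPM in Fra1 controls. They summed to 40.0 to 47.5 CPM in Fra2 mutants, against 32.4 to 64.6 CPM in Fra2 controls, so the ranges overlapped in both strains. The Slc10a2 window held the loose AP-1 form shown above, as TGATTCA, 118 bases before the start. Those of Slc51b (TGAGTCA), Slc2a9 (TGACTCA) and Slco2b1 (TGACTCA) held it too, among 14 other carriers with a window. With Slc10a2 these made 4 of 17 windows, against 7.81% of all windows. Slc2a9 and Slco2b1 were not called in either strain by edgeR, DESeq2 or limma-voom.

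Another 7 genes were listed as canalicular, and whether their proteins lie on that membrane was not tested. Of these, Abcc12, an ABC transporter of the same subfamily as Abcc4, was the single call in Fra1 mutants (3.84% of all genes). It stood there at 5.80, 2.69 and 3.40 CPM, against 0.261, 0.344 and 0.269 CPM in Fra1 controls. By edgeR the rise was 3.72 ± 0.51 on the log2 scale (adjusted p = 0.00169). It rests on 16 counts summed over the Fra1 controls, against 224 over the Fra1 mutants. Abcc12 averaged 1.03 CPM in Fra2 mutants and 0.496 CPM in Fra2 controls. Those groups overlapped, and edgeR did not call the gene there (adjusted p = 0.454). Of the 9 tested other basolateral carriers, 0 passed in either strain by edgeR, and 2 had an unadjusted p under 0.05 in each strain. DESeq2 called 2 in Fra1 mutants and 0 in Fra2 mutants, with 1 and 0 by limma-voom. The average contrast of edgeR called 2 of the 9, Slc51b as higher and Slco1a1 as lower, where 6.24% of all genes were called. Slc51b, a subunit of the basolateral bile salt exporter OST, stood at 11.2, 4.69 and 1.57 CPM in Fra1 mutants, against 0.392, 0.197 and 1.29 CPM in Fra1 controls (adjusted p = 0.0754). Its partner subunit Slc51a did not pass the filter on low counts. Slco1a1, an organic anion uptake carrier, stood at 36.6, 2.00 and 56.0 CPM in Fra1 mutants, against 336, 594 and 370 CPM in Fra1 controls (adjusted p = 0.0787). In Fra2 mutants it stood at 158, 140 and 150 CPM, against 1311, 96.8 and 689 CPM in Fra2 controls, and the groups overlapped.

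**Figure D5:**
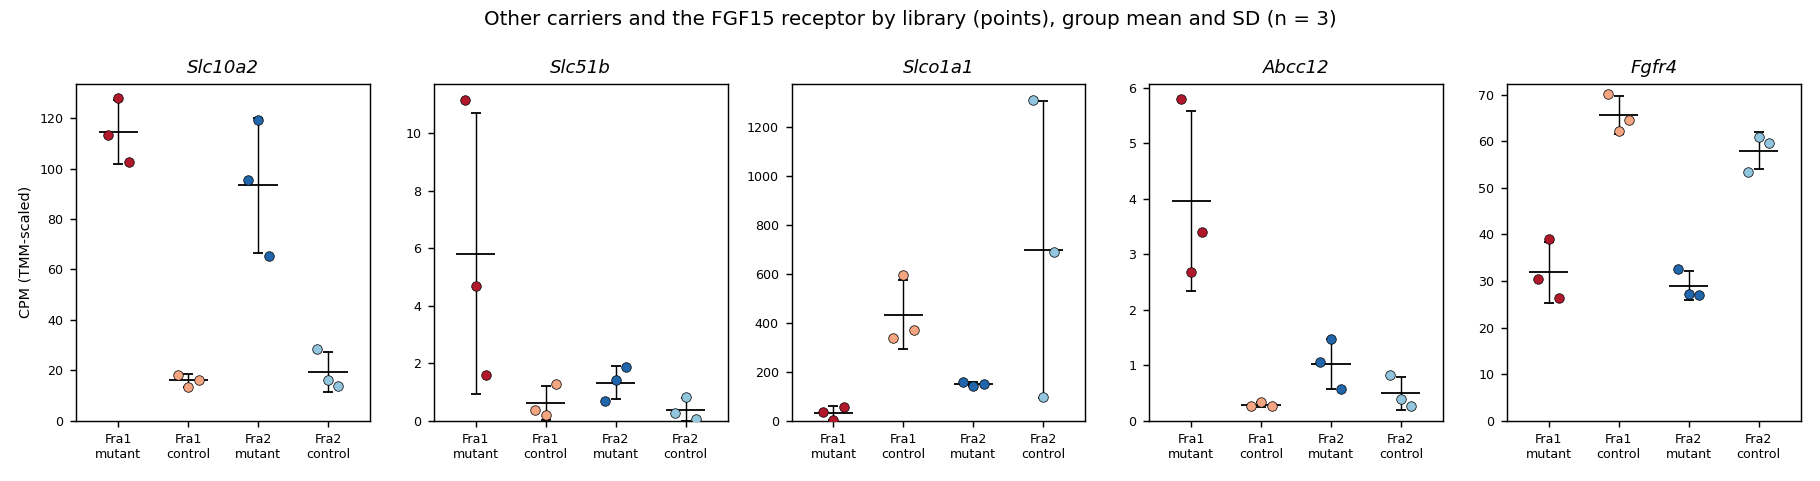
CPM of 4 further carriers and of Fgfr4 in each library (points) with group mean (line) and SD (bar, n = 3), for Fra1 mutants, Fra1 controls, Fra2 mutants and Fra2 controls from left to right. Slc10a2 lay at 65.5 CPM or above in all 6 mutants and at 28.4 CPM or below in all 6 controls, and Fgfr4 was lower in all 6 mutants than in any control.

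The regulators and partners of the transporters were counted in the same way, with calls by edgeR. Of all genes tested, 3.84% were called in Fra1 mutants, 1.07% in Fra2 mutants and 6.24% by the average contrast. Of 14 receptors and sensors, Fgfr4, the hepatocyte receptor for the ileal hormone FGF15, alone passed and fell in both strains, by 1.04 ± 0.14 (adjusted p = 0.00171) in Fra1 mutants and 1.00 ± 0.14 (adjusted p = 0.00658) in Fra2 mutants on the log2 scale. Nr1h4, which encodes FXR, the receptor that switches on Abcb11, had log2 fold changes of -0.18 ± 0.13 in Fra1 mutants and -0.35 ± 0.13 in Fra2 mutants, and neither passed (adjusted p = 0.559 and 0.318). Of 5 tested FXR targets outside the set, 0 passed in either strain, with 3 and 2 at an unadjusted p under 0.05. DESeq2 called 2 and 0 and limma-voom 0 and 0. The average contrast called 2 of the 5, Fetub as lower and Slc51b, also listed among the basolateral carriers, as higher. Of 9 enzymes of bile acid synthesis, 0 passed in either strain, with 3 and 0 at an unadjusted p under 0.05; DESeq2 called 2 and 0 and limma-voom 0 and 0. Of 11 tested NRF2 targets, 4 rose in Fra1 mutants (Srxn1, Pgd, Gsta1 and Gsta2) and 2 in Fra2 mutants (Srxn1 and Gsta2), with log2 fold changes of 2.04 ± 0.17 in Fra1 mutants and 1.75 ± 0.17 in Fra2 mutants for Srxn1, which repairs peroxiredoxins. Gsta1 and Gsta2 are near-identical copies, so their split is uncertain. DESeq2 and limma-voom called 4 each in Fra1 mutants, and 4 and 2 in Fra2 mutants. The listed targets Nqo1, Gclc, Gclm and Hmox1 were called in neither strain by any of these tools. Gstm1 was lower in Fra2 mutants at an unadjusted p under 0.05 (edgeR), averaging 1182 CPM against 1521.5 CPM in Fra2 controls. In Fra1 mutants Gstm1 averaged 1592 CPM, against 1349 CPM in Fra1 controls. G6pdx, an enzyme that supplies NADPH, was called as lower in Fra2 mutants by DESeq2 and by the average contrast of edgeR (log2 fold change -0.98 ± 0.24, adjusted p = 0.033), averaging 7.30 CPM in Fra1 mutants and 13.03 CPM in Fra1 controls, and 4.50 CPM in Fra2 mutants and 9.81 CPM in Fra2 controls. Of 7 tested targets of the drug receptors CAR and PXR, Cyp2c55 alone passed, rising in Fra1 mutants by 1.96 ± 0.38 (adjusted p = 0.0155). In Fra1 mutants 3 of the 7 were positive and 4 negative, and 3 had an unadjusted p under 0.05 (Cyp2b10, Cyp2c55 and Gstt1). Cyp2b10 went the other way, averaging 2.94 CPM in Fra1 mutants and 9.10 CPM in Fra1 controls. It averaged 10.3 CPM in Fra2 mutants and 27.6 CPM in Fra2 controls, where the groups overlapped. DESeq2 called Cyp2b10 for the average of both effects.

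Genes that hold the pumps at the canalicular membrane were counted too. Of 12 scaffold and trafficking genes, 0 passed in either strain, with 1 in each at an unadjusted p under 0.05; DESeq2 called 1 (Ezr) in Fra1 mutants and 0 in Fra2 mutants, and limma-voom called 0. Among genes of the junctions and the canalicular surface, F11r and Cdh1, which encode adhesion proteins, rose in Fra1 mutants, by log2 fold changes of 1.27 ± 0.18 (adjusted p = 0.002001) and 1.61 ± 0.35 (adjusted p = 0.0257, edgeR). In Fra2 mutants F11r had a log2 fold change of 0.63 ± 0.18 (adjusted p = 0.1455) and Cdh1 0.77 ± 0.34 (adjusted p = 0.415), and neither passed by edgeR, while DESeq2 called F11r. Among 27 tested genes of the other ABC families, 4 rose and 3 fell in Fra1 mutants, where 2.9% and 0.938% of all genes did. The peroxisomal fatty acid transporter Abcd2 fell in both strains. It was the single call of the 27 in Fra2 mutants, where 1.07% of all genes were called. In Fra1 mutants the summed markers of stellate cells and fibroblasts were 311 to 383 CPM, against 192 to 238 CPM in Fra1 controls, with Dcn and Lum called and 0 of the 7 at 0 in either group. In the other strain they were 212 to 292 CPM in Fra2 mutants, against 274 to 312 CPM in Fra2 controls. Their part in the transporter values was not tested.

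Among the protein-coding genes most like Abcc4 across the 12 libraries, by Pearson's r of log2 CPM over 11746 genes, were Appl1 (0.909), Ubr1 (0.905), Zmynd11 (0.901) and N4bp1 (0.895). Appl1, N4bp1 and Ubr1 also stood lower in every Fra1 control than in any Fra2 control, and Appl1 and N4bp1 had log2 fold changes of 0.83 ± 0.18 and 0.79 ± 0.14 in Fra1 mutants (edgeR). The 5 most like Abcb11 were Hsd17b6 (0.938), Zrsr1 (0.930), Abca8a (0.920), Scap (0.904) and Shroom2 (0.882). Hsd17b6, a steroid dehydrogenase, had a log2 fold change of -5.50 ± 0.66 (edgeR) in Fra1 mutants, beside the -0.72 of Abcb11. These correlations describe 12 libraries that share 4 groups, and genes chosen for likeness to a member over these libraries share its direction largely by that choice.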

How the data were processed

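Liver RNA of 12 mice was sequenced from stranded polyadenylated libraries, per the labels' protocols. The authors deposited raw counts, whole numbers per gene and library, not normalized. Tools named in the submitters' processing notes are STAR 2.6.1a, DESeq2 1.22.2, bedtools 2.27.1 and RSEM, and the build is GRCm38 (mm10). Which of them counted the reads, with which annotation and strand setting, and how reads matching several genes were handled, the sources used here leave unstated.

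Groups came from the titles. The mice were separate littermates, and no 2 libraries of a group agreed within counting noise (chi-square per degree of freedom 30.1 to 129). The transporters and the related gene lists were chosen with earlier results of these data known. All members are named, and up to 4 called genes per related list and strain; the 5 genes most like Abcc4 and Abcb11 were taken among genes averaging at least 1 CPM, and some results of the junction list and of the genes most like Abcc4 are not reported here. Genes passing filterByExpr (14076) were fitted in R 4.3.3 with edgeR 4.0.16: TMM factors, 4 group means over 12 libraries, robust quasi-likelihood tests, two-sided, Benjamini-Hochberg adjusted over all genes, called under 0.05. SE values were taken from the test statistic. CPM, and the CPM per kb of exon, use TMM-scaled library sizes. Coordinates and exon lengths are from GENCODE M21, which matched 54673 of 55421 identifiers with their version and 55240 without. Alternatives were RLE factors, no scaling, DESeq2 1.42.0, limma-voom 3.58.1, no filter, at least 1 CPM in 3 libraries, a fit to the compared libraries alone, a block for replicate number, each library left out in turn, and Fra2 controls 1 and 2 left out together because of uneven Fosl1 and Fosl2 counts. The average of the Fra1 and Fra2 effects was added after the data had been seen.

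The fit was tested on simulated counts for the Fra1 comparison over 13913 genes. The counts were drawn once, from the spread and scaling that edgeR had estimated, so they follow edgeR's model and cannot rank the tools. There edgeR recovered 77.3% of 66 genes changed 4-fold, 27.7% of 65 changed 2-fold and 3.03% of 66 changed 1.5-fold, with 2 of 73 calls false, while 31 of DESeq2's 124 calls were false. In the simulated Fra2 comparison, where nothing changed, edgeR called 0 genes and DESeq2 12.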

Additional observations from a re-analysis of the deposited data

How the results depend on the processing

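Among the calls, Abcc4 in Fra1 mutants passed in 12 of 12 fits that left out 1 library (adjusted p 0.00434 to 0.0318), Abcb11 in 10 of 12 (up to 0.054) and Abcb1a in 7 of 12 (up to 0.112). So the members called as higher in Fra1 mutants were 1 to 2 and those called as lower 0 to 1 when a library was left out. DESeq2 called 2 members as lower in Fra1 mutants, adding Slc10a1, 1 as higher in Fra2 mutants, Abcb4, and 1 as lower in Fra1 against Fra2 controls, Abcc4. For the average of both effects it called 2 members as lower. Counts of 12 to 25 for Abcc4 in Fra1 controls limit how well its fold change is known.

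The counts over all genes moved more. In Fra1 mutants DESeq2 called 678 as higher and 343 as lower, no scaling gave 674 as higher, and leaving out a library gave 215 to 429 higher and 52 to 153 lower. In Fra2 mutants DESeq2 called 315 and 133, a fit to the compared libraries alone 71 and 19, the fit without Fra2 controls 1 and 2 called 41 and 9, and leaving out a library 45 to 143 and 7 to 41. For the difference of effects the counts were 47 and 22 by DESeq2, 0 and 0 by limma-voom, 8 higher with no filter, 1 higher without Fra2 controls 1 and 2, and 0 to 12 and 0 to 2 without a library. For the controls DESeq2 called 1 and 17, no filter 3 lower, and leaving out a library 0 to 1 lower. For the average, no scaling gave 939 higher, DESeq2 511 lower, the fit without Fra2 controls 1 and 2 gave 348 and 136 with 0 members higher, and leaving out a library gave 160 to 301 lower and 1 to 3 members higher. That fit leaves Fra2 control 3 alone in its group and assumes that it varies like the others. Without scaling the median over all genes in Fra1 mutants moved to 0.15 and that of the basolateral members to 0.40, a move close to that of all genes. Leaving out a library gave canalicular medians of 0.14 to 0.79 in Fra1 mutants and 0.18 to 0.58 in Fra2 mutants, and basolateral medians of 0.13 to 0.33 in Fra1 mutants and -0.094 to 0.21 in Fra2 mutants.

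Replicate numbers showed no sign of pairing the samples (correlations of deviations -0.0831, 0.045 and 0.0515 in the Fra1 strain and 0.0728, 0.0178 and -0.153 in the Fra2 strain). Mutants and controls with different numbers gave -0.158 to 0.125. With 3 libraries per group these values cannot exclude pairing by litter or cage. With a replicate block Abcc4, Abcb11 and Abcb1a stayed called in Fra1 mutants (adjusted p 0.0138, 0.0147 and 0.0256), the average call of Abcb4 was lost (0.0588), and 0 and 0 genes were called for the difference of effects.

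Values near 0 that no test had called changed sign. In the difference of effects Abcb4 was 0.042 with the block and 0.033 by limma-voom, and Abcc1 -0.35 without Fra2 controls 1 and 2. In that last fit the controls' contrast was 0.29 for Abcb4 and 0.37 for Abcc1, the Fra2 value of Abcb1a -0.00066 and the average of Abcc2 -0.0041. The average of Abcc2 was -0.0073 by DESeq2 and with RLE factors, the controls' contrast of Slc10a1 0.0098 by limma-voom, and Abcc3 without scaling 0.082 in Fra1 mutants and 0.010 on average. When a library was left out, the Fra1 values ran from -0.11 to 0.32 for Abcc2 and -0.22 to 0.13 for Abcc3. The Fra2 values ran from -0.38 to 0.53 for Abcb1a, -0.059 to 0.62 for Abcc1, -0.15 to 0.0088 for Abcc2 and -0.28 to 0.045 for Abcc3. The averages ran from -0.097 to 0.12 for Abcc2 and -0.17 to 0.0059 for Abcc3. The differences of effects ran from -0.78 to 0.27 for Abcb1b, -0.47 to 0.37 for Abcb4, -0.053 to 0.63 for Abcc1, -0.030 to 0.39 for Abcc2 and -0.10 to 0.24 for Abcc3. The controls' contrasts ran from -0.13 to 0.065 for Abcb11, -0.37 to 0.32 for Abcb1b, -0.29 to 0.057 for Abcb4, -0.52 to 0.087 for Abcc1 and -0.21 to 0.20 for Slc10a1. Where a setting alone changed a call or a sign, the cause was not tested.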
